A study of Mus musculus with 9 samples.

Results

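The 47 genes described here are the tumour suppressor p53, its regulators and targets, and the regulators of apoptosis, taken from a named list of mouse symbols among 27179 genes counted in alveolar macrophages. The list was matched to the table through Entrez gene identifiers. All 47 members were found, and 46 passed the count filter that left 12840 genes to test. The macrophages were purified by FACS, a fluorescence-based cell sort, from lungs of C57BL/6 mice at 1 week of age. There were 4 wild type libraries and 5 Suz12 cKO libraries, each given as a biological replicate. cKO stands for a conditional knockout, in which a Cre recombinase removes a gene in chosen cells. The driver of Cre, the deleted exons, the sort gate and whether a library pooled several animals were not stated in the sources used here. Poly(A) RNA was sequenced as single-end reads of 85 bases.

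p53 is a transcription factor that is kept low by MDM2, a ubiquitin ligase whose own gene p53 activates. Its targets slow the cell cycle, repair DNA, limit oxidants or promote cell death. The mitochondrial route to death is set by the BCL2 family: survival members such as MCL1 and BCL2A1 hold the pore formers BAX and BAK1 in check, and BH3-only proteins such as NOXA and BIM release them. Cytochrome c then leaves the mitochondria, binds APAF1 and activates caspase 9, while inhibitor of apoptosis proteins (IAPs) restrain caspases and the signalling downstream of death receptors. Alveolar macrophages live long in the airspace and maintain their own numbers after birth. SUZ12 belongs to the core of PRC2, the Polycomb complex that writes the repressive H3K27me3 mark.

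Libraries held 13814799 to 25284693 counts in wild type and 18584016 to 45606001 in the knockout. Genes with at least 1 count numbered 12396 to 13372 in wild type libraries and 15364 to 16757 in knockout libraries. Depth did not set this order alone: knockout library 4, with 18584016 counts, had 15480 such genes, and wild type library 4, with 25284693, had 13168. Limits from depth given below for wild type zeros do not include this difference, whose cause was not tested. Levels are given as CPM, counts scaled to 1000000 per library after TMM scaling, a correction for differences in RNA composition. Suz12 (Entrez 52615, chromosome 11: 79993106-80034123, mm10) was at 51.7 to 76.6 CPM in wild type and at 11.9 to 21.8 CPM in the knockout. Its log2 fold change was -2.06 (SE 0.18, edgeR quasi-likelihood adjusted p = 1.69e-05). All 12 alveolar macrophage markers passed the count filter, and Siglecf, Marco, Mrc1 and Pparg were present in every library. Of these 12 markers, 1 was higher (Marco) and 3 were lower in the knockout (Car4, Cd9 and Krt79). That was 33.3%, against 19.9% of all tested genes. With the length offset described next, 4 were higher (Marco, Pparg, Ear1 and Ear2) and 2 lower (Cd9 and Krt79), while 16.3% of all genes passed. By their X- and Y-linked transcripts, 3 wild type libraries came from female and 1 from male material, against 2 and 3 of the knockout. Fold changes also moved with transcript length. The median log2 fold change was -0.42 in the shortest 10% of tested genes (up to 970 bases) and 0.14 in the longest 10% (from 6045 bases). Values from a fit with a length offset, which removes that trend within each library, are therefore given beside the calls and counts of members and context lists that it alters.

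Of the 46 tested members, 5 were higher and 5 were lower in the knockout at an adjusted p under 0.05, or 21.7%. Over all tested genes 19.9% passed that threshold, with 8.97% higher and 11% lower. The members' share was thus near the background and is no result about the list as a whole. Their median log2 fold change was 0.02, against 0.04 for all tested genes. The higher members were Gadd45a, Sesn2, Pmaip1, Bid and Birc3, and the lower ones were Perp, Bad and the paralogs Bcl2a1a, Bcl2a1b and Bcl2a1d. With the length offset, 4 members were higher and 5 lower, while 16.3% of all genes passed. Bad and Birc3 were then not called and Casp9 was called lower. In bulk RNA, fewer cells of a type and less RNA per cell cannot be told apart, which holds for every difference given here.

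Knockout and wild type values did not overlap for 5 members that were higher and 5 that were lower, against 20.8% of all tested genes. These were the 10 called genes except Bad, plus Casp9. Scaling by library size alone moved the median of all genes from 0.04 to 0.15 and the higher share of all calls from 45% to 65.9%. Under that scaling 7 members were higher and 4 lower. A p-value here weighs the difference between genotypes against the spread between libraries within a genotype.

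**Figure D1:**
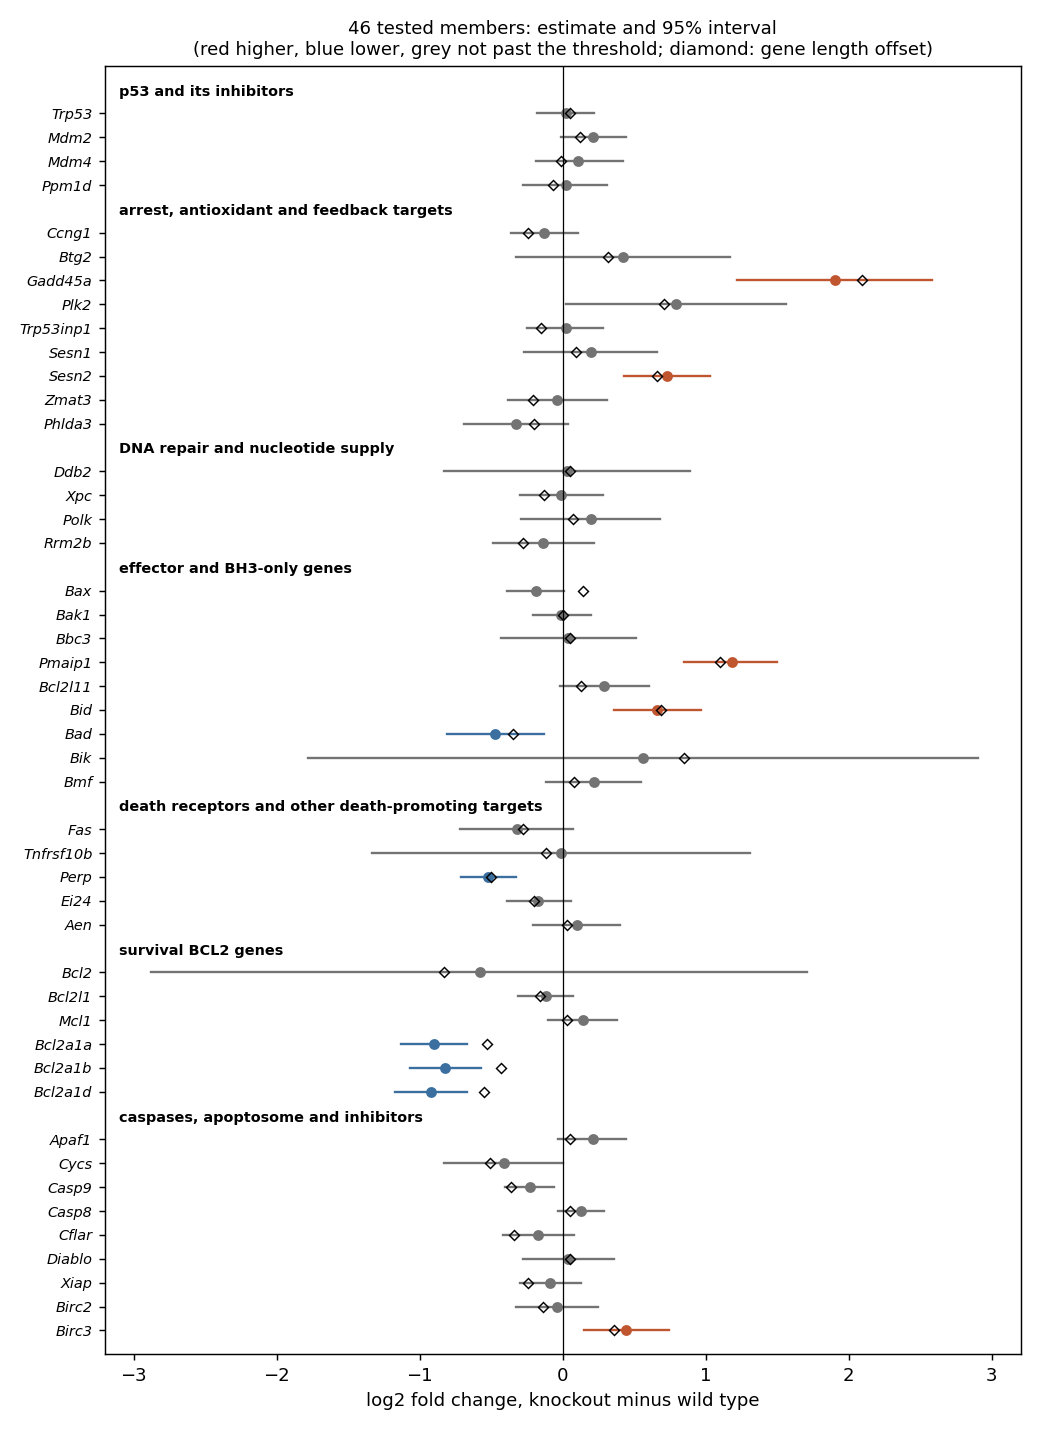
Log2 fold change of each tested member, knockout minus wild type, with its 95% interval, grouped by role; diamonds are the values with the length offset. Most intervals include 0. The Bcl2a1 paralogs lie between -0.92 and -0.82, and Gadd45a lies farthest to the right at 1.90.

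No change was detected in the transcripts of p53 itself or of its inhibitors. None of these 4 genes was called by edgeR, DESeq2 or limma voom, and 0 of them had an unadjusted p under 0.05 by edgeR. Trp53, which encodes p53 (Entrez 22059, chromosome 11: 69580348-69591873), was at 76.8, 64.3, 62.3 and 63.2 CPM in wild type libraries 1 to 4. It was at 68.6, 70.8, 60.5, 66.9 and 70.2 CPM in knockout libraries 1 to 5. The ranges overlapped, and the log2 fold change was 0.02, with a 95% interval from -0.18 to 0.22 (adjusted p = 0.928). These are RNA levels, while p53 is mainly controlled as a protein.

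Mdm2 (Entrez 17246) was at 68.9, 66.5, 88.4 and 63.3 CPM in wild type and at 83.3, 90.2, 74.3, 84.1 and 83.8 CPM in the knockout. Wild type library 3 was above the other wild type libraries, and knockout library 3 was the lowest of its group. Its log2 fold change was 0.21 (95% interval -0.01 to 0.44, edgeR adjusted p = 0.178). Without wild type library 3 it was 0.34 (adjusted p = 0.0179), and it was 0.34 under scaling by library size alone (adjusted p = 0.0352). The 2 other inhibitors were Mdm4, an MDM2 relative that blocks p53's activation domain, and Ppm1d, a phosphatase that switches off p53 signalling. Their log2 fold changes were 0.11 and 0.02.

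Among the 9 targets that act in growth arrest, antioxidant defence and feedback, Gadd45a and Sesn2 were higher in the knockout and none was lower. That was 22.2% of the list, near the 19.9% of all tested genes. Gadd45a (Entrez 13197, chromosome 6: 67035096-67037407) encodes a stress protein that binds PCNA and cell cycle kinases. It was at 5.25, 2.88, 1.75 and 1.85 CPM in wild type and at 11.9, 12.3, 8.87, 11.4 and 10.8 CPM in the knockout. Every knockout library was above every wild type library. Group means were 2.93 ± 1.63 CPM (SD, n = 4) and 11 ± 1.34 CPM (SD, n = 5). Gadd45a thus had the largest log2 fold change of the called members, 1.90 (SE 0.32, edgeR adjusted p = 9.03e-04).

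Sesn2 (Entrez 230784, chromosome 4: 132492804-132510456) encodes sestrin 2, a leucine sensor that restrains mTORC1. Its levels were 18.8, 23.6, 15.6 and 19.6 CPM in wild type and 32.9, 32.3, 27.5, 33.3 and 35.4 CPM in the knockout, without overlap. The log2 fold change was 0.73 (SE 0.14, edgeR adjusted p = 0.00215). Sesn1, the related sestrin that responds chiefly to p53, overlapped between genotypes, with a log2 fold change of 0.20 (95% interval -0.27 to 0.66). The difference between the 2 sestrins was not tested.

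Plk2, a polo-like kinase, was at 16.2, 16.5, 44.6 and 15.9 CPM in wild type and at 34.7, 51.7, 24.9, 38.0 and 50.2 CPM in the knockout. Wild type library 3 was thus the only wild type library inside the knockout range. With that library, it was 0.79 on the log2 scale (SE 0.35, edgeR adjusted p = 0.145), and 1.31 (adjusted p = 0.00155) without it. A sex covariate gave 1.01 (adjusted p = 0.0409), and limma voom gave 1.03 (adjusted p = 0.0236). Btg2, an antiproliferative early response gene, was spread widely, from 135 to 434 CPM in wild type and from 284 to 521 CPM in the knockout, with a log2 fold change of 0.42 (95% interval -0.33 to 1.17).

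The other targets with these roles are Ccng1 (cyclin G1), Trp53inp1 (a p53 cofactor in stress and autophagy), Zmat3 (an RNA-binding zinc finger protein) and Phlda3 (a repressor of AKT). Their log2 fold changes ran from -0.33 for Phlda3 to 0.02 for Trp53inp1, and none was called. Phlda3 was at 90.9 to 107 CPM in wild type, at 81.0 to 93.5 CPM in 4 knockout libraries and at 44.5 CPM in knockout library 3. That library was also the lowest of the knockout for Trp53inp1, Ccng1 and Zmat3.

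Wild type library 3 and knockout library 3 were left out together in a fit chosen after seeing the data. It then called 6 members higher and 5 lower, while 21.9% of all genes passed. Mdm2 (log2 fold change 0.38, edgeR adjusted p = 0.0064) and Plk2 (1.44, adjusted p = 1.22e-04) were among those higher, and Birc3 was not (0.32, adjusted p = 0.0992).

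**Figure D2:**
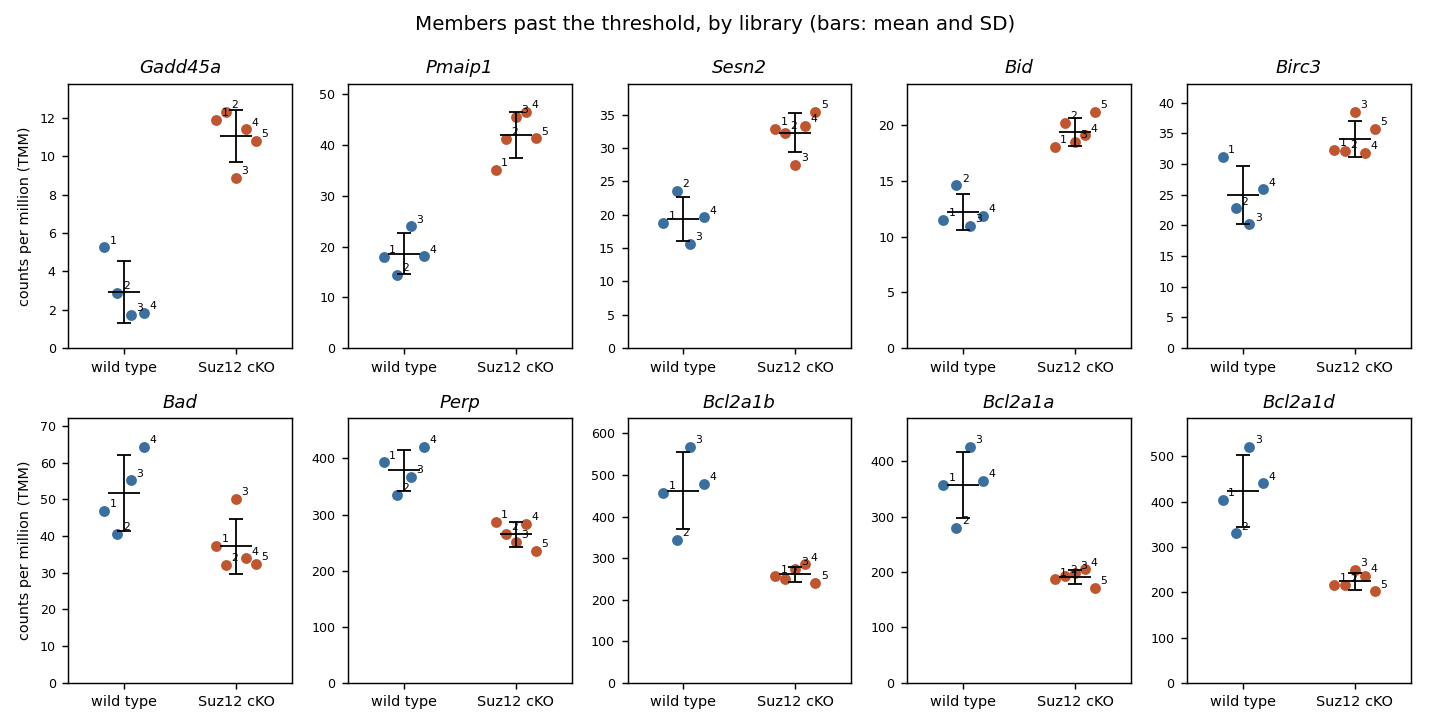
CPM of each called member in the 4 wild type and 5 knockout libraries, on linear axes with a separate scale per gene; points are libraries, numbered by replicate, and bars are the group mean and SD. Bad is the called gene whose ranges overlap, with knockout library 3 at 50.1 CPM above 2 wild type libraries.

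The promoters of Mdm2, Ccng1, Bax and Gadd45a each hold a match to the letters of the p53 half-site, a part of p53's binding site. Of these 4 genes only Gadd45a was called. RefSeq promoters of GRCm38.p6 were searched on both strands over 300 bases, from 250 before to 50 after each start, for the p53 half-site. Promoters were found for 38 members, and 12 of them held a match: Aen, Bax, Birc2, Bmf, Ccng1, Ei24, Gadd45a, Mdm2, Polk, Ppm1d, Sesn1 and Trp53. Of all 27025 genes with a promoter, 9.55% held one. Of the 12 members, only Gadd45a was called, while 19.9% of all tested genes were. Sesn2 and Bid had no match in this window. Pmaip1 and Perp, which were called too, had no promoter among those searched, so these matches do not relate the motif to the calls. A match is a description of letters, not a measured site. The 250 bases before the start are given 5′ to 3′ on the minus strand, on which all 4 genes lie, with the match in capitals. They are chr10:117710759-117711008 (Mdm2), chr11:40755287-40755536 (Ccng1), chr7:45466899-45467148 (Bax) and chr6:67037408-67037657 (Gadd45a). The first matched base lies 186, 185, 201 and 40 bases before the start, respectively.
Mdm2: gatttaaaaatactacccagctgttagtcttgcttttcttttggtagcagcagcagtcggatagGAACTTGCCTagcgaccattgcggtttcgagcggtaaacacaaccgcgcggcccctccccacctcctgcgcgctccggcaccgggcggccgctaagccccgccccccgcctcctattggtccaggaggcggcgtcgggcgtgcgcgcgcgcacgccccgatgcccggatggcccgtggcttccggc
Ccng1: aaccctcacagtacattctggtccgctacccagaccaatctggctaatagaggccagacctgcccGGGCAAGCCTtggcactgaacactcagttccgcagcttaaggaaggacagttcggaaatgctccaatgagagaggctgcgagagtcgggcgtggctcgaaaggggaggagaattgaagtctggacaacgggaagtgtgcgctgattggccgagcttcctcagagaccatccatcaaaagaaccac
Bax: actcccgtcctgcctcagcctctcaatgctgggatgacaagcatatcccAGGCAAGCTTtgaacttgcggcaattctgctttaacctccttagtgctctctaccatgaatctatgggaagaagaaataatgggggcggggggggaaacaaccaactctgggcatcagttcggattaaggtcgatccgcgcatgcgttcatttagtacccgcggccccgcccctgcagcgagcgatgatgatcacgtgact
Gadd45a: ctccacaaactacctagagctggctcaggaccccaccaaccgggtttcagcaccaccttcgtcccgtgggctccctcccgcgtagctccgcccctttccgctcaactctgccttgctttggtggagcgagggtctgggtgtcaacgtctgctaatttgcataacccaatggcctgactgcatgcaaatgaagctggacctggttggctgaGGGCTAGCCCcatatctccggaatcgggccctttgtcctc

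CpG content varied among the called members with a promoter in both directions of change. Of the higher members, the 300-base windows of Sesn2, Bid and Gadd45a held 23, 22 and 14 CpG dinucleotides, and that of Birc3 held 7. Of the lower members, the windows of Bcl2a1a, Bcl2a1b and Bcl2a1d held 3, 4 and 4, and the 2 windows of Bad held 27 and 21. The median over all promoters was 7.  No binding or H3K27me3 was measured in these libraries.

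None of the 4 targets in DNA repair and nucleotide supply was called by edgeR, DESeq2 or limma voom, and 0 had an unadjusted p under 0.05 by edgeR. Ddb2 senses ultraviolet damage, Xpc starts nucleotide excision repair, Polk is a translesion polymerase and Rrm2b a subunit of ribonucleotide reductase. Their log2 fold changes were 0.03, -0.01, 0.20 and -0.14. Ddb2 was low, at 1.69 to 6.20 CPM over all libraries, and its 95% interval ran from -0.83 to 0.89. It overlaps Acp2, and reads from such pairs may be assigned to either gene, since the strand setting of the counting was not stated in the sources used here.

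Pmaip1 and Bid rose among the BH3-only genes, Bad was called lower, and the pore formers Bax and Bak1 were not called. These 3 calls were 33.3% of the 9 genes with these roles, against 19.9% of all tested genes. With the length offset 2 were higher and 0 lower, while 16.3% of all genes passed. Pmaip1 (Entrez 58801, chromosome 18: 66458604-66465558) encodes NOXA, which binds chiefly MCL1 and BCL2A1. It was at 18, 14.4, 24 and 18.1 CPM in wild type and at 35.1, 41.2, 45.6, 46.5 and 41.3 CPM in the knockout. All knockout libraries were above all wild type libraries. The means were 18.6 ± 3.97 CPM (SD, n = 4) and 41.9 ± 4.51 CPM (SD, n = 5). This was a 2.26-fold difference, 1.18 on the log2 scale (SE 0.15, edgeR adjusted p = 1.83e-04).

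Bid (Entrez 12122, chromosome 6: 120893119-120917062) links death receptors to the mitochondria after caspase 8 cuts its protein. It was at 11.5, 14.6, 11 and 11.9 CPM in wild type and at 18.1, 20.2, 18.5, 19.1 and 21.2 CPM in the knockout, again without overlap. The log2 fold change was 0.66 (SE 0.14, edgeR adjusted p = 0.00486).

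Bad (Entrez 12015, chromosome 19: 6941861-6951905) encodes a BH3-only protein that growth factor signals hold inactive by phosphorylation. It was at 46.8, 40.6, 55.2 and 64.3 CPM in wild type and at 37.4, 32.2, 50.1, 33.9 and 32.5 CPM in the knockout. The groups overlapped through knockout library 3. Bad's log2 fold change was -0.47 (SE 0.16, edgeR adjusted p = 0.0489). The call was lost when wild type library 1, 3 or 4 or knockout library 1, 2, 4 or 5 was left out (adjusted p 0.0684 to 0.171), and with the length offset (-0.35, adjusted p = 0.112). Bad also overlaps Gpr137 on the genome.

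Bax was at 138, 116, 151 and 137 CPM in wild type and at 119, 113, 106, 132 and 124 CPM in the knockout. Its log2 fold change was -0.19 (95% interval -0.39 to 0.01, edgeR adjusted p = 0.177) and turned to 0.14 (adjusted p = 0.274) with the length offset. Bak1 was at 102, 91.8, 105 and 84.9 CPM in wild type and at 93.4, 82.2, 102, 94.1 and 105 CPM in the knockout, a log2 fold change of -0.01 (95% interval -0.21 to 0.20). Both genes overlapped between genotypes.

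Of the remaining BH3-only genes, Bbc3 encodes PUMA, the direct p53 target that binds all survival members, and its log2 fold change was 0.04 (95% interval -0.43 to 0.51). Bcl2l11 encodes BIM, a broad activator of death on loss of survival signals, and had 0.29 (95% interval -0.02 to 0.60). Bmf, a BH3-only protein tied to the cytoskeleton, had 0.22 (95% interval -0.12 to 0.55). Bik was nearly absent, at most 1.09 CPM. It had no count in wild type libraries 1 and 3, where the depth allows up to 0.133 and 0.217 CPM (3 counts; counting error only).

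Perp was the 1 called gene among the 5 tested death receptors and other death-promoting targets, or 20% against 19.9% of all tested genes. Perp (Entrez 64058, chromosome 10: 18845071-18857073) is a p53 target that encodes a small membrane protein of desmosomes. It was at 393, 335, 367 and 421 CPM in wild type and at 287, 266, 252, 284 and 235 CPM in the knockout. The groups did not overlap. The means were 379 ± 36.9 CPM (SD, n = 4) and 265 ± 21.7 CPM (SD, n = 5). Perp fell by 0.52 on the log2 scale (SE 0.09, edgeR adjusted p = 0.00112). Perp is also abundant in epithelium. The summed epithelial markers ranged from 775 to 901 CPM in wild type and from 422 to 719 CPM in the knockout. Krt19 made up most of that sum, at 703 to 816 CPM in wild type and 378 to 658 CPM in the knockout. Of the 9 tested epithelial markers, Krt19 (log2 fold change -0.48, edgeR adjusted p = 0.0175) and Hopx (-1.28, adjusted p = 5.39e-05) were lower and 0 were higher by edgeR, DESeq2 or limma voom. These 2 were 22.2% of the tested epithelial markers, against 19.9% of all tested genes, and were also those with an unadjusted p under 0.05 by edgeR. Krt19 was not called with the length offset (-0.34, adjusted p = 0.131). Epcam (1.5, adjusted p = 0.228) and Ager (1.22, adjusted p = 0.157) had positive values that did not pass. The surfactant genes were low, with Sftpc at 2.56 to 10.8 CPM and Sftpb at most 1.08 CPM over all libraries. Sftpa1 and Sftpd were at most 1.46 and 0.958 CPM. The epithelial keratins Krt8 and Krt18 were nearly absent in both genotypes, at most 1.61 and 1.43 CPM. The lower sum in the knockout thus describes mainly Krt19 and not the epithelial markers as a set. The part of epithelial RNA in the fall of Perp was not tested.

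Fas, the receptor of Fas ligand, was at 12.0 to 25.7 CPM in wild type and at 13.6 to 15.8 CPM in the knockout, with a log2 fold change of -0.32 (95% interval -0.72 to 0.07). Without wild type library 2, its lowest wild type value, the log2 fold change was -0.49 (edgeR adjusted p = 0.0311). Tnfrsf10b, the mouse TRAIL receptor, was low, at 0.587 to 2.78 CPM. Eda2r, the ectodysplasin A2 receptor, did not pass the filter, with raw counts of 28, 0, 0 and 0 in wild type and 5, 10, 1, 5 and 6 in the knockout. Ei24, a membrane protein of the endoplasmic reticulum induced by p53, and Aen, an apoptosis-enhancing nuclease, had log2 fold changes of -0.17 and 0.10.

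The 3 Bcl2a1 paralogs, which encode the survival protein BCL2A1 (also called A1), fell together, while Mcl1, Bcl2l1 and Bcl2 were not called. These 3 calls were 50% of the 6 survival genes, against 19.9% of all tested genes. The paralogs have many read-length stretches in common, as given below, and may not be independent. The paralogs lie on chromosome 9 in mm10: Bcl2a1d (Entrez 12047) at 88723288-88731850, Bcl2a1a (Entrez 12044) at 88956920-88962416 and Bcl2a1b (Entrez 12045) at 89199273-89207838. BCL2A1 binds NOXA and BIM and is induced by NF-kB in myeloid cells. The stretch of 80 bases with the most differing positions in the open reading frames lies at their start and is shown here. It comes from GENCODE transcripts of GRCm38, spans bases 1 to 80 from the start codon 5′ to 3′, and has the positions that differ in capitals.
Bcl2a1a: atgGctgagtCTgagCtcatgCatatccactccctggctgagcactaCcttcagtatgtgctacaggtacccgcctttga
Bcl2a1b: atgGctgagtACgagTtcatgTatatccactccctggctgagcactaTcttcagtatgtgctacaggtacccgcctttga
Bcl2a1d: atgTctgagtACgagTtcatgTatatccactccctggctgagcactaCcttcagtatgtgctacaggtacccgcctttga
This window holds 6 of the 12 positions that differ over the 519 bases of the frame. Bcl2a1a and Bcl2a1b were 97.9% identical, Bcl2a1a and Bcl2a1d 98.7%, and Bcl2a1b and Bcl2a1d 98.8%. Of the 85-base stretches of their transcripts, 49.7% (Bcl2a1a), 63.8% (Bcl2a1b) and 64.3% (Bcl2a1d) also occurred in transcripts of another gene. How reads with several matches were counted was not stated in the sources used here, and the split between paralogs is uncertain.

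Bcl2a1a was at 357, 280, 426 and 365 CPM in wild type and at 187, 192, 199, 205 and 172 CPM in the knockout. Bcl2a1b was at 457, 344, 568 and 479 CPM in wild type and at 256, 251, 275, 285 and 241 CPM in the knockout. Bcl2a1d was at 404, 330, 521 and 440 CPM in wild type and at 216, 215, 250, 236 and 202 CPM in the knockout. For each paralog, the lowest wild type library (library 2) was above the highest knockout library.

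Their log2 fold changes were -0.90 (SE 0.11), -0.82 (SE 0.12) and -0.92 (SE 0.12), with edgeR adjusted p of 1.23e-04, 3.30e-04 and 1.59e-04 in that order. With so many stretches in common they may not be independent. The summed counts avoid the split. The sum was 1220, 953, 1520 and 1280 CPM in wild type and 659, 659, 725, 727 and 615 CPM in the knockout. The means were 1240 ± 231 CPM (SD, n = 4) and 677 ± 48.2 CPM (SD, n = 5), and the log2 fold change was -0.88 (SE 0.11, edgeR adjusted p = 1.73e-04), or 0.545-fold.

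With the paralogs counted as 1 locus, 8 of 44 loci were called, or 18.2%, against 19.9% of all genes in that table. Each paralog took a steady part of the sum: Bcl2a1a 27.5% to 29.4%, Bcl2a1b 36.0% to 39.3% and Bcl2a1d 32.5% to 34.6% over the 9 libraries. Bcl2a1b's part was 36.0% to 37.5% in wild type and 38.0% to 39.3% in the knockout, a small difference that was not tested.

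Transcript length moved with this result. The counted lengths are 796, 764 and 796 bases, within the shortest 10% of tested genes, of which 39.3% were called lower. With the length offset, the log2 fold change of the sum was -0.50 (SE 0.07, edgeR adjusted p = 4.71e-04). The single paralogs then had -0.53, -0.43 and -0.55, and each was still called. The direction and the call thus held, while the size was smaller.

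**Figure D3:**
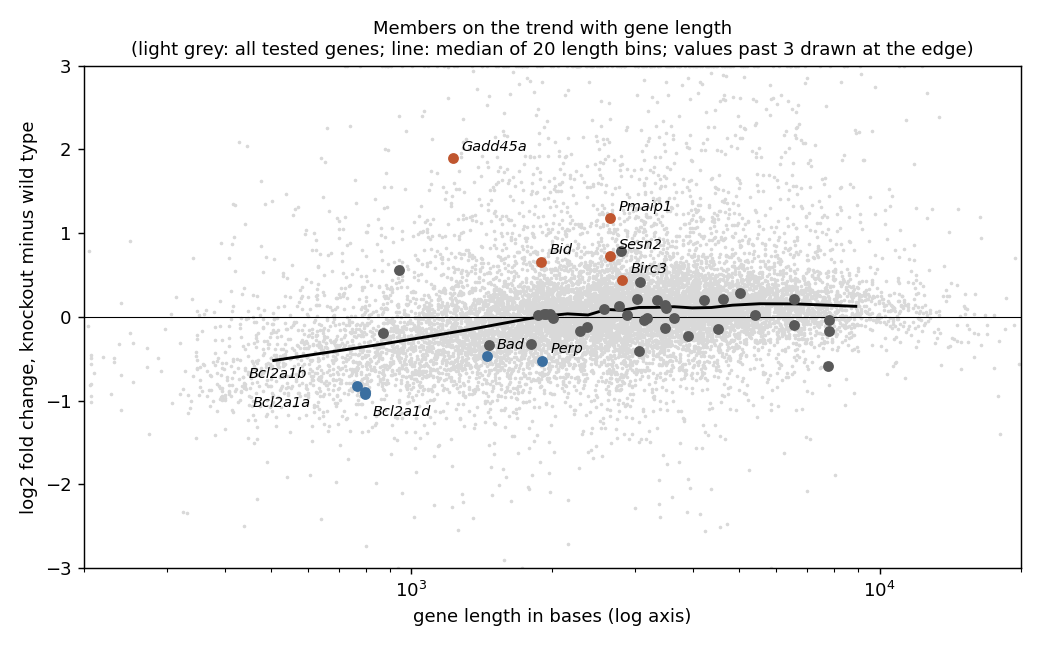
Log2 fold change against transcript length in bases (log axis) for all tested genes, with the median over length bins as a line, the members as large points and values past 3 drawn at the edge. The Bcl2a1 paralogs sit between 764 and 796 bases, below the median of -0.42 for the shortest 10% of genes.

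Bcl2a1 genes are also well expressed in neutrophils. The summed neutrophil markers were at 72.9 to 96.8 CPM in wild type and at 76.8 to 202 CPM in the knockout, the highest value being knockout library 3. Ly6g, the defining marker, was at 0 in 8 of 9 libraries and at 0.0211 CPM in knockout library 1. Of the 7 tested neutrophil markers, 1 was higher (Csf3r) and 0 were lower by edgeR, DESeq2 or limma voom. That was 14.3%, against 19.9% of all tested genes, and 3 of the 7 had an unadjusted p under 0.05 by edgeR. The 3 were Csf3r (log2 fold change 1.25, adjusted p = 0.00446), Mmp8 (-0.99, adjusted p = 0.143) and Retnlg (-1.88, adjusted p = 0.148). Mmp8 averaged 32.1 CPM in wild type and 16.2 CPM in the knockout, and Retnlg 1.27 and 0.335 CPM. The other tested markers, S100a8, S100a9, Cxcr2 and Ltf, had positive log2 fold changes of 0.89, 0.72, 0.68 and 1.05, none called. The median of the 7 was 0.72. The part of neutrophil RNA in the fall of Bcl2a1 was not tested.

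Mcl1 (Entrez 17210), a short-lived survival protein on which many myeloid cells depend, was at 770, 940, 878 and 949 CPM in wild type. It was at 916, 949, 1250, 956 and 809 CPM in the knockout, so the groups overlapped. Its log2 fold change was 0.14 (95% interval -0.10 to 0.38, edgeR adjusted p = 0.425).

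Bcl2l1, which encodes the survival protein BCL-XL, was at 57.1, 62.2, 56.7 and 63.6 CPM in wild type and at 60.7, 53.4, 53.1, 54.3 and 54.3 CPM in the knockout. The log2 fold change was -0.12 (95% interval -0.31 to 0.07). Bcl2, the founding member of the family, was near the detection limit. Its raw counts were 4, 9, 33 and 0 in wild type and 23, 21, 9, 10 and 34 in the knockout, and 0 counts in wild type library 4 allow up to 0.119 CPM. Its log2 fold change was -0.58 with a 95% interval from -2.88 to 1.71, so no difference was detectable at this depth. Without wild type library 3 its value was 1.46, also not called.

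Levels per kilobase of transcript put these genes on 1 scale. In wild type, Bcl2a1b had the highest level of the BCL2 family members at 604 ± 121 CPM per kilobase (SD, n = 4), then Bcl2a1d at 532 ± 99.8 and Bcl2a1a at 448 ± 75.2. Bcl2a1d lay within its own SD of both neighbours, while Bcl2a1b and Bcl2a1a were farther apart than either SD. The order was the same in every library. Mcl1 followed at 253 ± 23.6 CPM per kilobase, Bax at 156 ± 16.8, Bak1 at 47.9 ± 4.59 and Bad at 35.6 ± 7.10. Bcl2l1 was at 25.3 ± 1.48 and Bcl2 at 0.102 ± 0.159 CPM per kilobase.

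In the knockout the levels of the survival genes were closer together, with no correction for the trend with length. Bcl2a1b was at 342 ± 23.6 CPM per kilobase (SD, n = 5), Bcl2a1d at 281 ± 24.1, Mcl1 at 280 ± 47 and Bcl2a1a at 240 ± 16.1. The summed Bcl2a1 level was 1580 CPM per kilobase in wild type and 862 in the knockout. With the length offset, the log2 fold change of the summed Bcl2a1 counts was -0.50 instead of -0.88. That of Mcl1 was 0.03 instead of 0.14. Bcl2a1 and Mcl1 thus drew together by less with the offset. Among the BH3-only genes, Pmaip1 went from 7.02 to 15.8 CPM per kilobase and Bid from 6.47 to 10.3, while Bcl2l11 was at 15.3 and 18.6 and Bmf at 14.8 and 17.3. Pmaip1 thus lay below Bcl2l11 and Bmf in wild type and near both in the knockout.

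**Figure D4:**
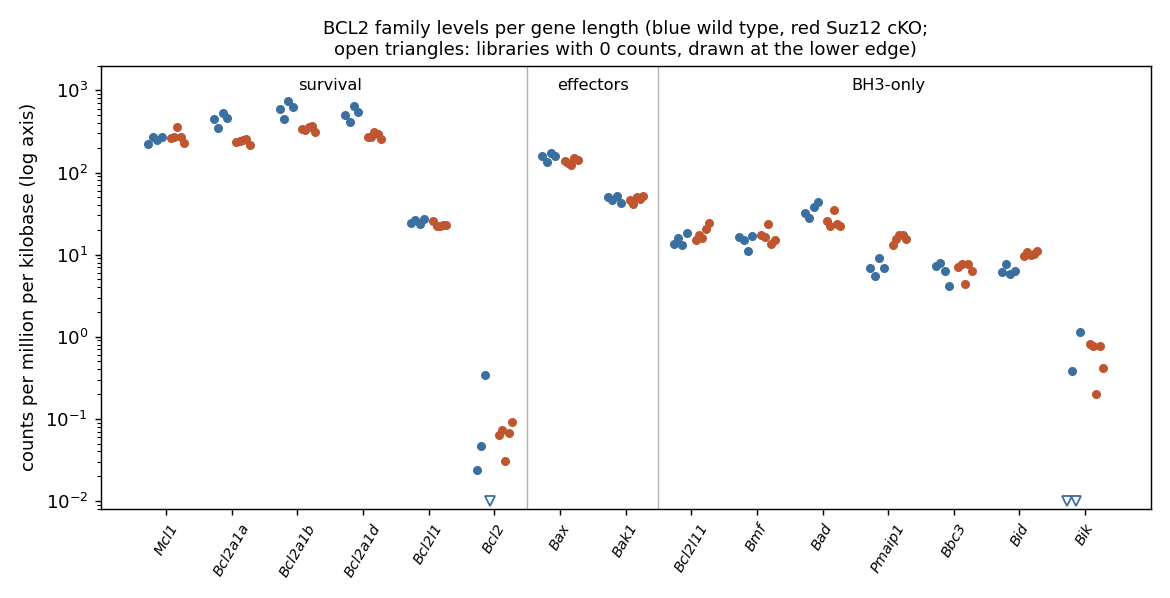
Level of each BCL2 family member in CPM per kilobase (log axis), points being the 4 wild type (blue) and 5 knockout (red) libraries; open triangles mark libraries with no count. The Bcl2a1 paralogs and Mcl1 lead, and Bcl2 and Bik are lowest in both genotypes.

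A sequence feature that the 3 paralogs shared was TGATGNAA, the letters of a composite C/EBP and ATF site, searched on both strands of the same 300-base promoter windows. It occurred in Bcl2a1a, Bcl2a1b, Bcl2a1d and Polk, and in 4.51% of all genes. The paralogs are near-identical in their reading frames, so their matches may not be independent and are no sign of enrichment. This search and that for the NF-kB site were not planned beforehand, unlike that for the p53 half-site.  The NF-kB site occurred in 5 of the 38 members with a promoter (Bbc3, Bcl2l1, Bmf, Trp53 and Xiap), against 9.55% of all genes. None of these 5 was called, while 19.9% of all tested genes were.

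Of the 9 caspase, apoptosome and inhibitor genes, Birc3 was called higher and none lower by edgeR, or 11.1% against 19.9% of all genes. With the length offset, Casp9 alone was called, lower. Birc3 (Entrez 11796, chromosome 9: 7847468-7873205) encodes cIAP2, a ubiquitin ligase of tumour necrosis factor and NF-kB signalling. It was at 31.2, 22.8, 20.2 and 25.9 CPM in wild type and at 32.3, 32.1, 38.5, 31.8 and 35.8 CPM in the knockout. The groups were separated by little, with wild type library 1 at 31.2 and knockout library 4 at 31.8 CPM. The log2 fold change was 0.44 (SE 0.14, edgeR adjusted p = 0.0344). The call was lost without wild type library 2, 3 or 4 or knockout library 1, 2, 3 or 5 (adjusted p 0.0561 to 0.079), with a sex covariate (0.0608) and with the length offset (0.0837).

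Casp9, the initiator caspase of the apoptosome, was at 78.3, 71.8, 80.1 and 71.1 CPM in wild type and at 67.2, 64.3, 64.0, 62.5 and 63.3 CPM in the knockout. All knockout libraries were below all wild type libraries. The log2 fold change of -0.23 (SE 0.08) missed the threshold in edgeR (adjusted p = 0.062). It passed with the length offset (-0.36, adjusted p = 0.00812), in DESeq2 (-0.24, adjusted p = 0.0263) and without wild type library 2 (-0.25, adjusted p = 0.0481).

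The other 7 genes were not called. Apaf1, the apoptosome scaffold, had a log2 fold change of 0.21 (95% interval -0.03 to 0.44). Cycs, cytochrome c, had -0.41 (95% interval -0.83 to 0.00), and -0.58 without wild type library 2 (edgeR adjusted p = 0.0287). Of Cycs's 85-base stretches, 23.4% also occurred in other transcripts, so its count is uncertain. Casp8, the initiator caspase of death receptors, had 0.13, and 0.25 under scaling by library size alone (adjusted p = 0.0328). Cflar, its inactive relative, had -0.17. Diablo, which relieves IAP inhibition, Xiap, the direct caspase inhibitor, and Birc2, which encodes cIAP1, had 0.04, -0.09 and -0.04.

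Over all roles, 36 tested members were not called. For 24 of these, the 95% interval of the fold change lay within 1.5-fold in either direction, including Trp53, Mdm2, Bax, Bak1, Bbc3, Mcl1, Bcl2l1 and Casp8. For the other 12, among them Plk2, Btg2, Bcl2l11, Fas, Cycs and Bcl2, it reached past 1.5-fold. Split by p53, 3 of the 24 tested p53 targets were higher and 1 was lower (16.7%), with a median log2 fold change of 0.02. Of the 22 members that are not counted as p53 targets, 2 were higher and 4 lower (27.3%), with a median of -0.02. The 4 lower ones included the 3 Bcl2a1 paralogs, which may not be independent and which raise this share. Both shares stand beside 19.9% for all genes, and their difference was not tested.

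Other genes of the pathway, from lists drawn up by role, showed changes of both signs. Of 20 tested regulators of p53, 2 were higher and 1 was lower, or 15%, against 19.9% of all genes, and with the length offset 1 was higher and 1 lower. Cdkn2a, whose ARF product inhibits MDM2, was at 0, 1.04, 0 and 0.463 CPM in wild type and at 4.29, 9.03, 2, 3.37 and 3.64 CPM in the knockout. Its log2 fold change was 3.46 (SE 0.87, edgeR adjusted p = 0.0126), and 3.06 without knockout library 2 (adjusted p = 0.0502). Trp53bp2, which encodes the p53 cofactor ASPP2, had 0.46 (adjusted p = 0.0185), lost with the length offset (0.32, adjusted p = 0.082) and without knockout library 2 (0.0632) or 5 (0.0602). Rpl5, a ribosomal protein that binds MDM2, had -0.52 (adjusted p = 0.00256).

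Of 30 other tested p53 targets, 7 were higher and 2 lower, or 30% against 19.9% of all genes, with a median log2 fold change of 0.06. Under the length offset 5 were higher and 1 lower, while 16.3% of all genes passed. Cdkn1a, which encodes the CDK inhibitor p21, was at 221, 240, 283 and 241 CPM in wild type and at 329, 415, 287, 426 and 398 CPM in the knockout. The groups did not overlap, and the log2 fold change was 0.59 (SE 0.12, edgeR adjusted p = 0.00331). Trp53i11, a p53-inducible gene, had means of 3.74 ± 2.27 CPM in wild type and 19.5 ± 5.74 CPM in the knockout (SD, n = 4 and 5) and a fold change of 2.36 on the log2 scale (adjusted p = 4.38e-04). Rps27l, a p53-induced relative of a ribosomal protein, fell from 179 ± 23.4 to 76.2 ± 11.4 CPM, with a log2 fold change of -1.23 (adjusted p = 2.96e-05), and of -0.67 with the length offset. Siva1, a death receptor adaptor, had -0.76 (adjusted p = 0.00303), lost with the length offset (-0.39, adjusted p = 0.093).

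Of 7 other tested BCL2 family genes, Bnip3l, a mitophagy receptor, was lower (-0.34, edgeR adjusted p = 0.0331) and 0 were higher by edgeR, DESeq2 or limma voom. That was 14.3% of the list, against 19.9% of all genes. At an unadjusted p under 0.05, edgeR had 1 gene of this list, Bnip3l itself, whose call was lost without wild type library 1, 2 or 4 or knockout library 1, 2 or 5 (adjusted p 0.0614 to 0.0975). Of 29 other death receptor, caspase and IAP genes, 3 were higher and 4 lower, or 24.1% against 19.9% of all genes. Under the length offset 1 was higher and 5 were lower. Casp6, an executioner caspase, had means of 11.2 ± 5.18 CPM in wild type and 27.4 ± 4.95 CPM in the knockout (SD, n = 4 and 5) and a fold change of 1.28 on the log2 scale (adjusted p = 0.00751). Bag3, an HSP70 cofactor, had 0.43 (adjusted p = 0.0292), lost without wild type library 1 or 4 or knockout library 2, 3 or 5 (0.0519 to 0.0797) and with the length offset (0.0585). Htra2, a mitochondrial protease that relieves IAP inhibition, had -0.50 (adjusted p = 0.0139). Birc5, survivin, which also acts in mitosis, had -0.57 (adjusted p = 0.0152), and -0.45 under scaling by library size alone (adjusted p = 0.0538). The summed markers of cycling cells were at 854 to 988 CPM in wild type and at 475 to 912 CPM in the knockout. Of these 6 markers 3 were lower (Ccnb1, Cdk1 and Pcna), or 50% against 19.9% of all tested genes. Mki67 (log2 fold change -0.35), Top2a (0.05) and Mcm5 (-0.23) were not called. With the length offset 4 were lower, Mki67 being added, while 16.3% of all genes passed. The part of cycling cells in the fall of Birc5 was not tested.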

How the data were processed

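Gene counts per library were deposited by the authors, made with featureCounts on mm10, per the submitters' processing notes. Not given in the sources used here were the aligner, versions, annotation release, strand setting and treatment of reads with several matches. The 9 single tables held the same counts as the joint table. Entrez identifiers were given symbols from RefSeq (25275 of 27179 matched).

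From the counts, edgeR 4.0.16 in R 4.3.3 compared the genotypes over all 9 libraries, with filterByExpr, TMM scaling, the quasi-likelihood test and Benjamini-Hochberg adjustment over all 12840 genes. CPM were computed with TMM-scaled library sizes. DESeq2 1.42.0 and limma 3.58.1 (voom) were alternatives, as were scaling by library size alone, other count filters, a sex covariate, a replicate block and leaving out each library. The length offset was, per library, a robust loess curve (span 0.5) of log2 deviation on log length, centred to a mean of 0 over genes. The scripts were tested on simulated counts. Intervals lay within 1.5-fold for 24 of the 36 members that were not called, and their width depends on both depth and the spread between libraries.

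The members and lists were chosen with earlier results of these data known. Named were all members, with values per library for called ones and for the main BCL2 and p53 genes, and, from each context list, called genes, at most the 4 with the smallest adjusted p. Plk2, Casp9 and other uncalled members given per library or by range were chosen after their values were seen. Same-numbered libraries were not treated as pairs.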

Additional observations from a re-analysis of the deposited data

Results flagged for a closer look

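In 92 groups of 4 or 5 libraries, 9 held a library whose gap to its neighbours exceeded Dixon's 95% critical value. Chance alone marks about 1 in 20 groups. In wild type, Plk2 was at 44.6 CPM in library 3 against 15.9 to 16.5 in the others, and Bcl2 was at 2.62 CPM in library 3 against 0 to 0.36. Trp53 was at 76.8 CPM in wild type library 1 against 62.3 to 64.3, and Cflar was at 61.3 CPM in the same library against 82.3 to 85.7. Ppm1d was at 33.6 CPM in wild type library 2 against 23.1 to 24.2.

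In the knockout, library 3 was at 28.0 CPM for Trp53inp1 against 37.7 to 40.7, and at 44.5 CPM for Phlda3 against 81.0 to 93.5. Fas was at 13.6 CPM in knockout library 5 against 15.2 to 15.8, and Bcl2l1 was at 60.7 CPM in knockout library 1 against 53.1 to 54.3. Of these 9 genes, Plk2 and Fas were called in some alternative, Plk2 without wild type library 3 and Fas without wild type library 2. None of the 10 called members was among the 9.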

How the results depend on the processing

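The counts of calls and the members were recomputed under 19 alternatives (18 for Bik and Bcl2, and the length offset alone for the summed Bcl2a1 counts), of which 9 left out 1 library and 1 (without library 3 of either genotype) was chosen after seeing the data. Of the 10 called members, 8 were called in the same direction under all 19: Gadd45a, Sesn2, Pmaip1, Bid, Perp and the 3 Bcl2a1 paralogs. Bad and Birc3 each lost their call under 11. Of 36 uncalled members, 30 were called by none and 6 by some (Mdm2, Plk2, Fas, Cycs, Casp9 and Casp8), while 17 changed sign somewhere. Scaling by library size alone called 1960 genes higher, against 1152. Members called lower ranged from 4 to 8 when 1 library was left out, with 8 without wild type library 2, and members called higher from 4 to 6. The cause was not tested.

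With the replicate number as a block, 749 genes were higher and 1103 lower, and 4 members were higher and 4 lower. Same-numbered deviations correlated at 0.036, 0.032, -0.057 and 0.115, and only libraries 4 correlated best with their own number. With values this small, the check cannot tell whether same-numbered libraries shared a litter or day, which the sources used here do not state. Depth limits Bcl2, Bik, Tnfrsf10b and Eda2r, for which no difference of moderate size could be detected.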
